A study of Mus musculus with 9 samples.

Results

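Aminoacyl-tRNA synthetases are the enzymes that join each amino acid to its transfer RNA (tRNA), and their messenger RNA was measured in B16.SIY mouse melanoma cells with and without knockdown of Decr2, a peroxisomal reductase of unsaturated fatty acid breakdown. The 36 synthetase genes were taken by name from the 10762 genes of the deposited table. Of these, 20 encode the cytosolic enzymes and 16, with names ending in 2, encode the separate mitochondrial enzymes. The genes were chosen by name, but the family itself was selected on earlier results of these libraries, the measured changes of its genes between the Decr2 hairpins and the control. The counts, changes and p-values below therefore describe its genes and are no independent support for a change of the family. All 36 genes had a value in every library.

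The cells are a C57BL/6 melanoma line that carries the model peptide antigen SIY fused to the fluorescent protein dsRED, and all libraries came from lines stably infected with a lentivirus and selected with puromycin. The 3 groups of 3 libraries, numbered 0, 1 and 2 in the titles, carried a control hairpin, Decr2 shRNA1 or Decr2 shRNA2. Each hairpin is represented by 1 stable line, and no label says that the libraries of a group were separate cultures, so the error behind each p-value is that among 3 libraries of a line and may be only technical. The series title names tumors, while the sample labels describe cultured cells.

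Cytosolic synthetases supply charged tRNA to the main ribosomes, and mitochondrial synthetases, also encoded in the nucleus, supply the ribosomes of the organelle. Gars and Kars each encode both forms, Eprs joins the glutamate and proline enzymes in 1 chain, and Farsa and Farsb encode the subunits of 1 phenylalanine enzyme. Several cytosolic enzymes sit in a multi-synthetase complex held together by the scaffold proteins of Aimp1, Aimp2 and Eef1e1. Many cytosolic synthetase genes are known targets of Atf4, the transcription factor of the amino acid stress response, which binds C/EBP-ATF response elements in their promoters.

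The promoters of the synthetase genes were searched for the core letters of that element, TGATGNAA, on both strands, because Atf4 mRNA was higher in these knockdown lines. RefSeq promoter entries on GRCm38.p6, from 250 bases before to 50 bases after each gene start, matched 27 of the 36 genes. Cars, Hars, Lars, Nars, Rars, Vars, Wars, Hars2 and Pars2 had no entry and were not searched. The letters stood in 5 of 13 cytosolic genes with an entry (38.5%), in 0 of 14 mitochondrial genes with an entry and in 3.97% of all 32851 promoter entries. That last share counts entries, not genes, and was not limited to the genes of the deposited table. The cytosolic genes were Aars, with 2 matches, and Gars, Iars, Tars and Yars, with 1 each. A match is a run of letters and not a measured binding site, and its absence says only that the letters are not in this window. The stretches from 150 bases before to 20 bases after the gene start are given for these 5 genes and, for comparison, for Sars and Kars, in which the letters were not found, with matches in capitals and the strand of the gene read 5′ to 3′. Aars lies at chr8:111033692-111033861 (plus strand), Gars at chr6:55037851-55038020 (plus strand), Iars at chr13:49681980-49682149 (plus strand) and Tars at chr15:11399639-11399808 (minus strand). Yars lies at chr4:129189753-129189922 (plus strand), Sars at chr3:108445240-108445409 (minus strand) and Kars at chr8:112011335-112011504 (minus strand).
Aars: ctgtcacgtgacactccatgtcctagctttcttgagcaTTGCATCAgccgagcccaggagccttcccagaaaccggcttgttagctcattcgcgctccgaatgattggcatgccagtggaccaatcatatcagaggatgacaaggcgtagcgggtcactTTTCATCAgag
Gars: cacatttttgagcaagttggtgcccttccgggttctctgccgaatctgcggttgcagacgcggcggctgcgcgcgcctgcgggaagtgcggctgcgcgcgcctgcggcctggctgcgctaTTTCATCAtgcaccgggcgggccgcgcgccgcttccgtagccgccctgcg
Iars: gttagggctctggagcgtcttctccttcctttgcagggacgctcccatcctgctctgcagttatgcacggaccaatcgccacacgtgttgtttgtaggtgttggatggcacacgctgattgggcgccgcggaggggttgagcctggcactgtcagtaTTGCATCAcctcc
Tars: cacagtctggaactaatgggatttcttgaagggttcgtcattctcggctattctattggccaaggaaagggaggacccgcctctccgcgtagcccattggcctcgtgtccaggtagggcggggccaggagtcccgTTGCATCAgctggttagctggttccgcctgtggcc
Yars: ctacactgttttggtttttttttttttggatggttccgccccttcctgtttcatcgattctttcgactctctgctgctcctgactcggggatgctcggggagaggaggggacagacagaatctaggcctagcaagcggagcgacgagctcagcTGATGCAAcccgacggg
Sars: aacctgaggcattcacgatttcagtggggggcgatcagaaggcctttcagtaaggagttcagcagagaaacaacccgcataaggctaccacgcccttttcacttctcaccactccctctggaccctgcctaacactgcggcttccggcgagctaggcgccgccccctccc
Kars: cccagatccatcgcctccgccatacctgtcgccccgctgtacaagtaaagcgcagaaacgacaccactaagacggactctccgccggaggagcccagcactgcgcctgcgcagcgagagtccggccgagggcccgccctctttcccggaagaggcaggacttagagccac

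Decr2 itself checked the labels. Its log2 value was 3.96, 4.10 and 3.71 in control replicates 0, 1 and 2, 2.87, 2.51 and 3.18 with shRNA1, and 0.84, 1.18 and 1.55 with shRNA2, so the groups did not overlap. It fell by 1.07 with shRNA1 (limma adjusted p = 0.0195) and by 2.73 with shRNA2 (adjusted p = 0.000568). All 7 melanocyte lineage markers were in the table, with control means between 8.46 (Sox10) and 12.97 (Tyrp1), and none of them passed the test in the mean of both hairpins. Of 21 markers of leukocytes, stroma, endothelium, epithelium and erythroid cells, 2 were in the table: Col1a1, with a control mean of -0.44, and Pdgfrb, with 3.34, neither of which passed. With the replicate block described below, Sox10 (-0.24) and Col1a1 (1.45) passed, and their part in the results was not tested. The linear values of a library summed to between 969465 and 1045849. The number of reads is unknown, and in bulk RNA fewer cells of a kind and less RNA per cell cannot be told apart.

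Against the control hairpin, the cytosolic synthetase genes parted into 3 sets. Cars, Sars, Tars, Nars, Yars, Lars, Aars, Gars and Mars stood 0.37 to 0.77 higher on the log2 scale in the mean of both hairpins, Rars, Kars and Hars stood 0.21 to 0.25 lower, and the other 8 lay between -0.17 and 0.23. In this mean, limma called 8 of the 36 genes at an adjusted p under 0.05: Cars, Sars, Tars and the mitochondrial Vars2 rose, and Rars, Kars, Hars and the mitochondrial Mars2 fell. Of all genes, 17.6% were called in this mean, 9.69% higher and 7.89% lower, against 4 of the 36 synthetases (11.1%) in each direction. The libraries numbered 0 deviated together (described below), while those numbered 1 and 2 also correlated with each other across groups and were not clearly parted by digit. A fit with the digit as a replicate block called 11 synthetases higher and 4 lower. In that fit 16.2% and 14.1% of all genes were called, 30.3% in either direction. The blocked fit added Nars, Yars, Lars, Aars, Gars, Mars and the mitochondrial Fars2 to the higher genes and lost none of the 8. Without control replicate 1, the unblocked fit called 0 of the 36 and 5.72% of all genes, and without control replicate 2 it called 1 (Vars2) and 5.86% of all genes. Without shRNA1 replicate 0 it called 15 and 24.5% of all genes.

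**Figure D1:**
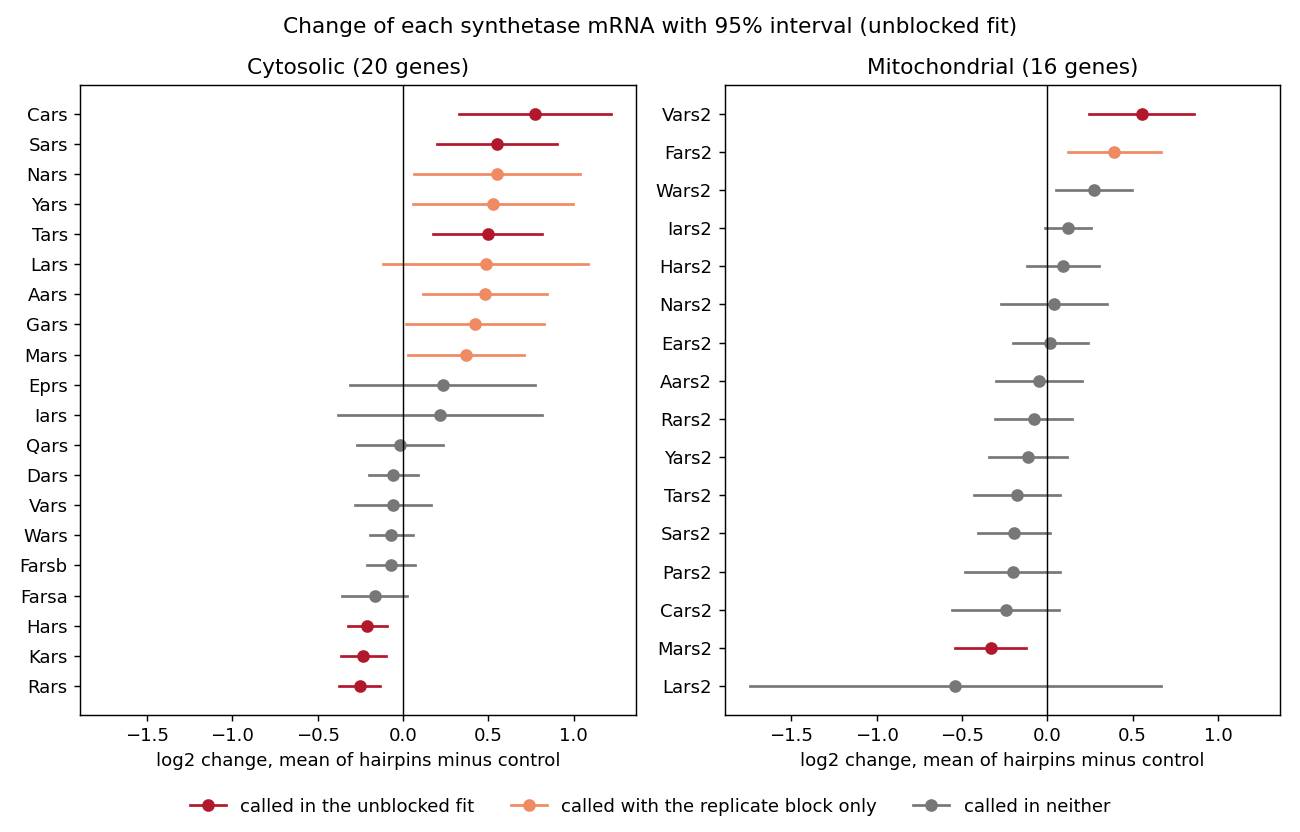
Change in log2 value of each synthetase gene, mean of both Decr2 hairpins minus control, with points for the estimate and bars for the 95% interval of the unblocked limma fit (3 control and 6 hairpin libraries). Colours mark the fit that called a gene. The 9 highest cytosolic genes lie between 0.37 and 0.77, and Rars, Kars and Hars have short intervals below 0.

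Cars, which charges tRNA with cysteine, had the highest mean change of the 36 genes, and its gene spans chr7:143557230-143600090 in GENCODE M21 on GRCm38, the annotation used for all gene positions here. Its log2 value was 6.01, 6.58 and 6.63 in control replicates 0, 1 and 2, 6.68, 7.29 and 7.43 with shRNA1, and 6.94, 7.38 and 7.35 with shRNA2. All 6 hairpin libraries lay above the 3 controls, although replicate 0 of shRNA1 exceeded the highest control by little. The mean change was 0.77 (SE 0.20, limma adjusted p = 0.0277), or 1.71-fold. With shRNA1 alone it was 0.73 (adjusted p = 0.0691), which missed the threshold, and with shRNA2 0.82 (adjusted p = 0.0469), which passed. In the blocked fit both passed, with adjusted p-values of 0.000765 and 0.000596.

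Sars, the serine enzyme, read 7.62, 7.91 and 7.88 in the controls, 7.88, 8.37 and 8.37 with shRNA1, and 8.15, 8.68 and 8.68 with shRNA2. Every shRNA2 library lay above the controls, while replicate 0 of shRNA1 fell within their range. The mean change was 0.55 (SE 0.16, adjusted p = 0.0388), with 0.40 for shRNA1 (adjusted p = 0.177) and 0.70 for shRNA2 (adjusted p = 0.0353). Tars, the threonine enzyme, read 6.99, 7.12 and 7.11 in the controls, 7.19, 7.62 and 7.81 with shRNA1, and 7.33, 7.79 and 7.70 with shRNA2. It was the other cytosolic gene with all 6 hairpin libraries above the controls, and its mean change was 0.50 (SE 0.14, adjusted p = 0.0414). All 6 hairpin libraries lay above the controls in 12% of all genes and in 4 of the 36 synthetases, namely Cars, Tars, Vars2 and Fars2.

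The other 6 cytosolic genes of this set missed the threshold without the block and passed it with the block. Nars, the asparagine enzyme, read 7.85, 8.32 and 8.31 in the controls, 8.12, 8.87 and 8.94 with shRNA1, and 8.36, 8.98 and 9.002 with shRNA2. Its replicate 0 was low in every group, and with shRNA1 it fell within the range of the controls, while every shRNA2 library lay above them. Each hairpin library exceeded the control of its own digit. The mean change of 0.55 had an SE of 0.22 and an adjusted p of 0.11 without the block, and an adjusted p of 0.00103 with it. Yars, the tyrosine enzyme, read 6.21, 6.59 and 6.67 in the controls, 6.28, 7.23 and 7.14 with shRNA1, and 6.97, 7.14 and 7.36 with shRNA2. Replicate 0 of shRNA1 was barely above the control of its digit and below the other controls. The mean change was 0.53 (SE 0.21, adjusted p = 0.11; 0.00837 with the block).

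Lars, the leucine enzyme of the complex, read 6.77, 7.21 and 7.23 in the controls, 6.79, 7.84 and 7.84 with shRNA1, and 7.10, 7.80 and 7.95 with shRNA2. Replicates 1 and 2 stood clear of the controls, and both hairpin libraries numbered 0 lay inside their range. The mean change was 0.48 (SE 0.27, adjusted p = 0.241; 0.00763 with the block). Aars, the alanine enzyme, read 7.84, 8.44 and 8.36 in the controls, 8.24, 8.70 and 8.79 with shRNA1, and 8.64, 8.88 and 8.91 with shRNA2, a mean change of 0.48 (SE 0.16, adjusted p = 0.0694; 0.00215 with the block). Gars, the glycine enzyme of both compartments, read 8.81, 9.21 and 9.17 in the controls, 8.96, 9.56 and 9.63 with shRNA1, and 9.23, 9.77 and 9.75 with shRNA2, a mean change of 0.42 (SE 0.18, adjusted p = 0.138; 0.00218 with the block). For Aars and Gars every shRNA2 library lay above the controls, and for both genes the lowest shRNA1 library lay among them. Mars, the methionine enzyme, read 6.50, 6.87 and 6.86 in the controls, 6.77, 7.33 and 7.26 with shRNA1, and 6.83, 7.23 and 7.25 with shRNA2, a mean change of 0.37 (SE 0.15, adjusted p = 0.125; 0.00235 with the block).

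**Figure D2:**
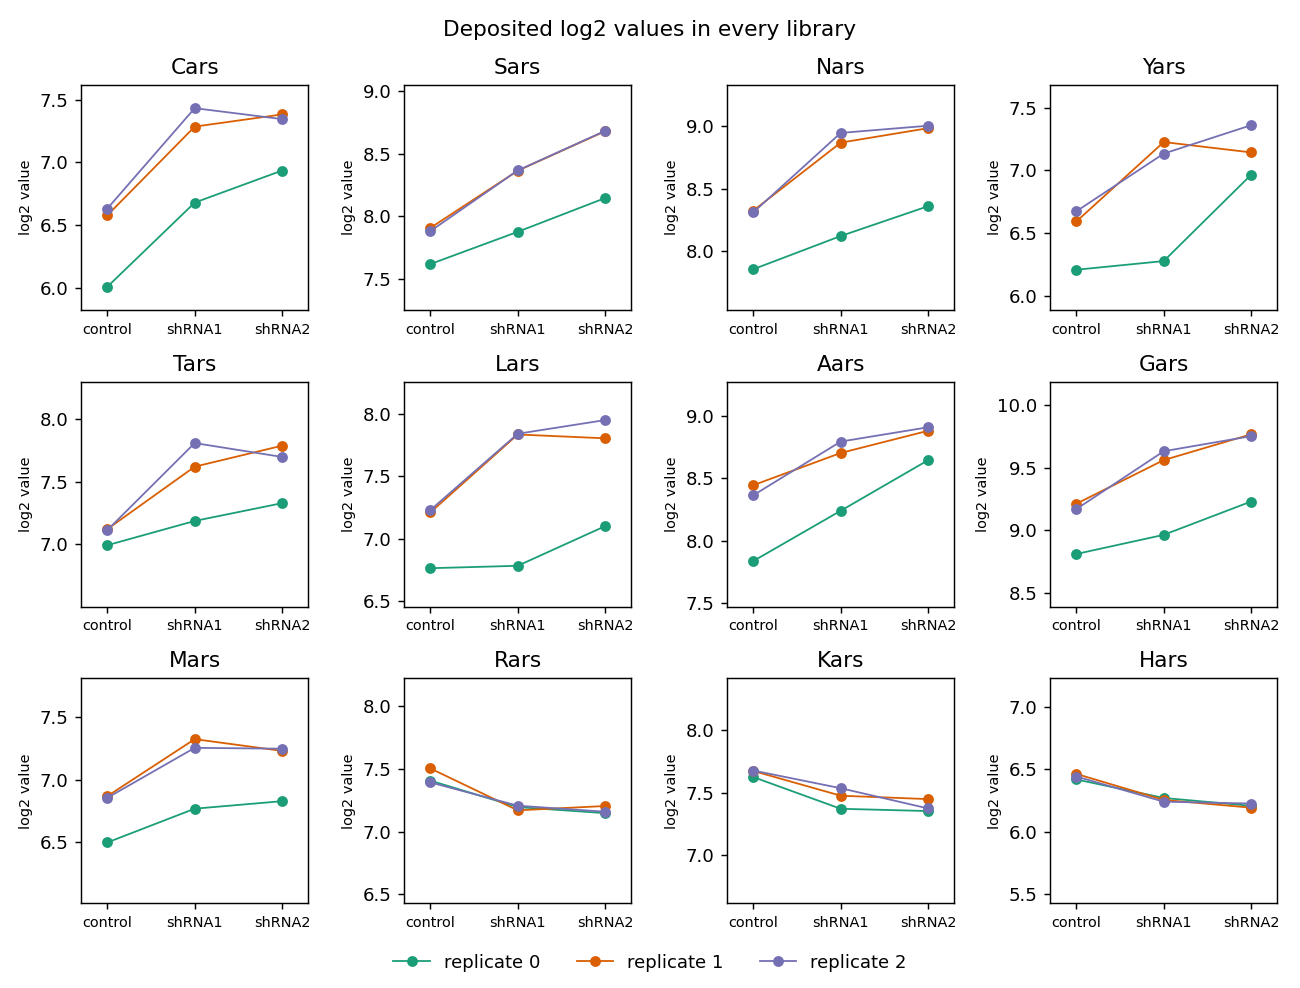
Deposited log2 values of the 9 cytosolic genes with the highest mean change and of the 3 that fell, by group on the horizontal axis, with 1 point per library and lines joining libraries of the same digit; each vertical axis spans 1.8 log2 units. In the first 9 genes replicate 0 is the lowest of its group and every hairpin point lies above the control point of its line, and in Rars, Kars and Hars every hairpin point lies below.

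Rars, Kars and Hars moved by less but with little spread. Rars, the arginine enzyme, at chr11:35808381-35834506, read 7.41, 7.50 and 7.39 in the controls, 7.20, 7.17 and 7.21 with shRNA1, and 7.15, 7.20 and 7.16 with shRNA2. All 6 hairpin libraries lay below the controls. Rars was the 1 synthetase called with both hairpins in the same direction, where 7.55% of all genes were so called, 3.01% lower and 4.54% higher. It fell by 0.24 with shRNA1 (SE 0.06, adjusted p = 0.0355) and by 0.27 with shRNA2 (SE 0.06, adjusted p = 0.0268). Kars, the lysine enzyme, read 7.63, 7.68 and 7.68 in the controls, 7.37, 7.48 and 7.54 with shRNA1, and 7.35, 7.45 and 7.38 with shRNA2. It fell by 0.23 in the mean (SE 0.06, adjusted p = 0.0271). Hars, the histidine enzyme, read 6.42, 6.46 and 6.44 in the controls, 6.27, 6.26 and 6.24 with shRNA1, and 6.21, 6.19 and 6.23 with shRNA2, and fell by 0.21 (SE 0.05, adjusted p = 0.0239). For both genes the hairpin libraries lay below all controls, as they did in 10.9% of all genes and in 4 of the 36 synthetases.

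The remaining 8 cytosolic genes passed in neither fit. Eprs, which charges glutamate and proline, and Iars, the isoleucine enzyme, stood 0.23 (SE 0.24) and 0.22 (SE 0.27) higher on average with wide spread. Their replicate 0 values, 8.27 for Eprs and 7.14 for Iars in the control, 8.15 and 6.99 with shRNA1, and 8.41 and 7.52 with shRNA2, lay below the other libraries of each group. Qars (glutamine), Dars (aspartate), Vars (valine), Wars (tryptophan), Farsb and Farsa (phenylalanine) had mean changes of -0.02, -0.06, -0.06, -0.07, -0.07 and -0.17. The 95% interval for Wars ran from -0.19 to 0.06 and for Dars from -0.20 to 0.09, so an increase of the size seen for Cars lay outside them. For Eprs the interval ran from -0.31 to 0.77 and for Iars from -0.38 to 0.82, so the unblocked fit leaves both a rise and a fall possible. With the block the SE was 0.088 for Eprs (limma adjusted p = 0.0771) and 0.098 for Iars (adjusted p = 0.126).

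The position of an enzyme in the multi-synthetase complex went with some of these differences. The 8 cytosolic genes of the complex had a median change of 0.10 in the mean of both hairpins, and the 12 outside it had 0.45, where the median over all genes was -0.00057. In the unblocked fit 0 of the 8 rose and 2 fell (Rars and Kars), while 3 of the 12 rose (Cars, Sars and Tars) and 1 fell (Hars), where 9.69% of all genes were called higher and 7.89% lower. With the block, 2 of the 8 rose (Lars and Mars) and 2 fell, and 7 of the 12 rose and 1 fell, where 16.2% and 14.1% of all genes were called. Structural class did not part the genes in this way: the 10 class I enzymes had a median of 0.23 and the 10 class II enzymes 0.18. Of the 5 genes with the searched promoter letters, Tars, Yars, Aars and Gars changed by 0.42 to 0.53 and Iars by 0.22. The 8 cytosolic genes with a promoter entry that does not hold the letters had a median change of -0.04. They ran from -0.23 (Kars) to 0.55 (Sars), with Mars at 0.37 and Eprs at 0.23. The cytosolic genes without an entry were Cars (0.77), Nars (0.55), Lars (0.48), Vars (-0.06), Wars (-0.07), Hars (-0.21) and Rars (-0.25). These splits are descriptions of a family chosen with results known and carry no test.

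The mitochondrial synthetase genes showed no common direction. Their median change was -0.07, with values from -0.54 to 0.55, and 7 of 16 were above 0. Vars2, the mitochondrial valine enzyme, at chr17:35655634-35667592, read 5.15, 4.73 and 5.31 in the controls, 5.54, 5.72 and 5.55 with shRNA1, and 5.37, 5.76 and 5.75 with shRNA2. The hairpin libraries lay above the controls, of which replicate 1 was the lowest. Vars2 rose by 0.55 in the mean of both hairpins (SE 0.14, adjusted p = 0.0252), with 0.54 for shRNA1 (adjusted p = 0.0567; 0.0328 with the block) and 0.56 for shRNA2 (adjusted p = 0.0478). Without control replicate 1 its change was 0.39 (adjusted p = 0.109). Its cytosolic partner Vars read 7.56, 7.81 and 7.93 in the controls, 7.68, 7.98 and 7.88 with shRNA1, and 7.48, 7.56 and 7.67 with shRNA2, and the groups overlapped.

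Mars2, the mitochondrial methionine enzyme, went the other way from its cytosolic partner Mars. Its gene lies at chr1:55237177-55248470. It read 5.27, 5.29 and 5.40 in the controls, 4.78, 5.07 and 5.02 with shRNA1, and 4.90, 4.98 and 5.20 with shRNA2, below the controls in all 6 libraries. It fell by 0.33 in the mean (SE 0.09, adjusted p = 0.0382). Fars2, the mitochondrial phenylalanine enzyme, read 3.50, 3.65 and 3.69 in the controls, 4.05, 4.28 and 3.86 with shRNA1, and 4.07, 4.06 and 3.72 with shRNA2. All hairpin libraries were above the controls, the lowest by a small margin, and the change of 0.39 missed the threshold without the block (SE 0.12, adjusted p = 0.0543) and passed with it (adjusted p = 0.0235).

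The partners of the 4 cytosolic genes with the highest mean change passed in neither fit. Cars2 had a change of -0.24 (SE 0.14), Sars2 of -0.19 (SE 0.09), Nars2 of 0.04 (SE 0.14) and Yars2 of -0.11 (SE 0.10). Cars2 read 3.69, 3.58 and 3.84 in the controls, 3.68, 3.54 and 3.25 with shRNA1, and 3.55, 3.14 and 3.58 with shRNA2, with overlapping groups. Sars2 read 3.68, 3.76 and 3.79 in the controls, 3.68, 3.65 and 3.54 with shRNA1, and 3.64, 3.46 and 3.34 with shRNA2. Values of Sars2 overlapped only in shRNA1 replicate 0. Nars2 ranged from 4.03 to 4.78 over the 9 libraries and Yars2 from 3.97 to 4.65.

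Lars2, the mitochondrial leucine enzyme, had the widest spread of the family. It read 10.26, 12.36 and 12.15 in the controls, 10.68, 10.60 and 12.09 with shRNA1, and 10.30, 10.84 and 11.81 with shRNA2. The low and high libraries did not follow the groups: replicate 2 was at least 11.81 and replicate 0 at most 10.68 in every group, while replicate 1 was high in the control and low with both hairpins. The change of -0.54 had an SE of 0.54 (adjusted p = 0.524). The other mitochondrial genes not yet named with a value were Wars2 at 0.27 (SE 0.10, adjusted p = 0.0879), Iars2 at 0.12, Hars2 at 0.09, Ears2 at 0.02, Aars2 at -0.05, Rars2 at -0.08, Tars2 at -0.18 and Pars2 at -0.20.

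For 13 amino acids, 1 gene encodes the cytosolic and 1 the mitochondrial enzyme. In 9 of these pairs the cytosolic change was the higher, with a median difference over all pairs of 0.53. The distance was 1.02 each for leucine and cysteine, 0.74 for serine, 0.70 for methionine, 0.67 for threonine and 0.64 for tyrosine. The mitochondrial change was the higher for valine, tryptophan, histidine and arginine, with differences of -0.61, -0.34, -0.30 and -0.17. The leucine value rests on the widely spread Lars2.

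**Figure D3:**
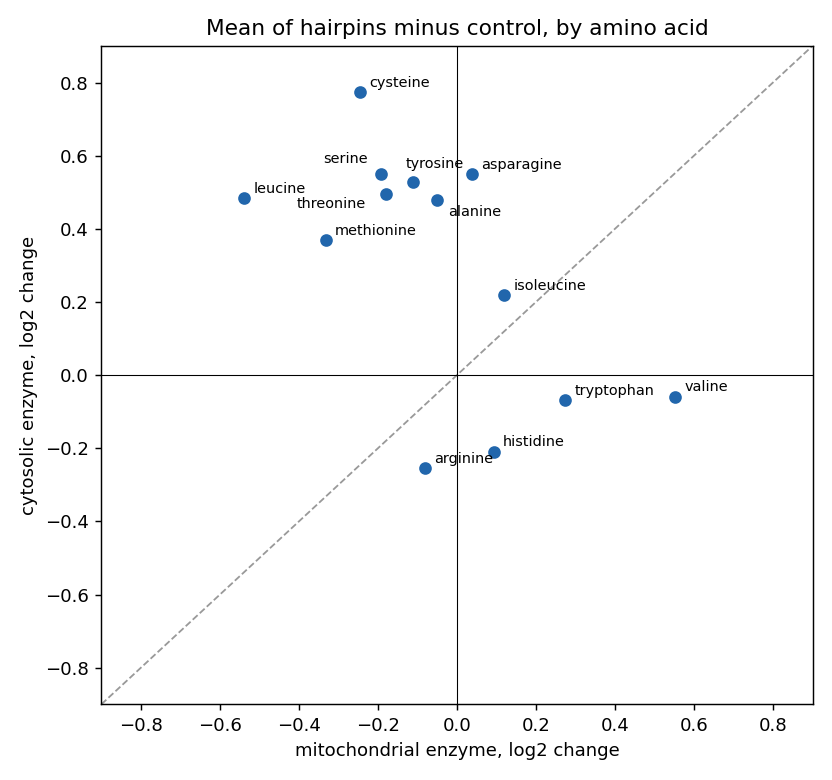
Log2 change, mean of both hairpins minus control, of the mitochondrial (horizontal) and cytosolic (vertical) enzyme for 13 amino acids, 1 point per amino acid; the dashed line marks equal change. Of the points, 9 lie above the line, and valine, tryptophan, histidine and arginine lie below it.

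The libraries numbered 0 stood apart for the cytosolic genes in every group. Replicate 0 was the lowest library of all 3 groups in 13 of 20 cytosolic genes and in 2 of 16 mitochondrial genes (Iars2 and Mars2). Its median difference from the mean of replicates 1 and 2 over the cytosolic genes was -0.34 in the controls, -0.50 with shRNA1 and -0.27 with shRNA2, and over the mitochondrial genes -0.01, -0.06 and -0.05. The share of all genes with replicate 0 lowest in every group was not counted. Over all genes, deviations of the libraries numbered 0 from their group means correlated at 0.39 to 0.64 between groups. What the digit stands for is not given in the labels. Compared within a digit, 9 of 20 cytosolic genes were above the control in all 6 hairpin libraries, and these were the 9 genes of the first set. The same held for 4 of 16 mitochondrial genes (Fars2, Iars2, Vars2 and Wars2) and for 20.3% of all genes. Rars, Kars, Hars, Cars2, Mars2 and Pars2 were below in all 6, as were 19% of all genes.

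**Figure D4:**
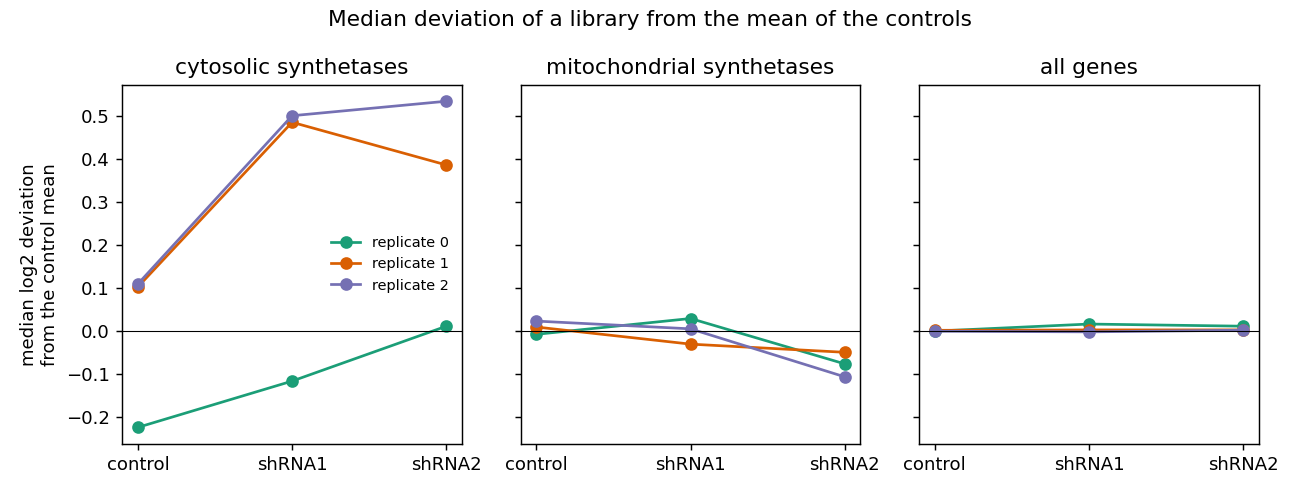
Median over genes of the log2 deviation of a library from the mean of the 3 controls, for the 20 cytosolic synthetases, the 16 mitochondrial synthetases and all genes, by group and with lines joining libraries of the same digit. Cytosolic medians are -0.22, 0.10 and 0.11 in control replicates 0, 1 and 2 and -0.12, 0.49 and 0.50 with shRNA1, while medians over all genes stay between -0.0017 and 0.017.

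Within digits 0, 1 and 2 the median cytosolic change was 0.05, 0.27 and 0.33 with shRNA1 and 0.33, 0.18 and 0.37 with shRNA2. The median mitochondrial change was 0.03, -0.05 and -0.01 with shRNA1 and -0.10, -0.06 and -0.13 with shRNA2. Without the 3 libraries numbered 0, 11 cytosolic genes rose in the mean of both hairpins (the 9 of the first set with Eprs and Iars) and 5 fell (Rars, Kars, Hars, Farsa and Qars). Of the mitochondrial genes 4 then rose and 2 fell, where 20.9% of all genes were called higher and 20.5% lower (41.4% in all). Without them 13 synthetases rose and 4 fell with shRNA1, where 17.6% and 16.9% of all genes were called (34.5% in all), and 12 rose and 7 fell with shRNA2, where 19.2% and 18.1% were (37.3% in all). Called with both hairpins were then 12 higher and 3 lower, where 12.6% and 11.1% of all genes were.

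By single hairpin, shRNA1 against control called 0 synthetases higher and 1 lower (Rars), where 6.92% of all genes were higher and 5.49% lower (12.4% in all), and 9 of the 36 had an unadjusted p under 0.05, as had 28.7% of all genes. With shRNA2, limma called 3 higher (Cars, Sars and Vars2) and 3 lower (Rars, Kars and Hars), where 7.27% and 5.67% of all genes were called (12.9% in all). With the block the counts were 10 higher and 3 lower for shRNA1, where 13.4% and 11.2% of all genes were called (24.6% in all), and 10 higher and 4 lower for shRNA2, where 13.4% and 10.6% were (24% in all). Called in the same direction with both hairpins in the blocked fit were 9 higher and 3 lower synthetases, where 9.17% and 6.24% of all genes were called. Both comparisons use the same control libraries. The authors' deposited table had adjusted p-values under 0.05 for the same genes, Rars with shRNA1 (0.0386) and Cars (0.0490), Sars (0.0367), Vars2 (0.0497), Rars (0.0290), Kars (0.0377) and Hars (0.0369) with shRNA2.

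The test of shRNA2 against shRNA1 called 0 of the 36 synthetases (limma), and 0 with the block, where 0.455% and 1.87% of all genes were called in either direction (with the block, 0.827% higher and 1.04% lower). At an unadjusted p under 0.05, as in 10% of all genes, there were 4, namely Vars, Ears2, Rars2 and Yars2. The widest gaps were in Yars2, at -0.39 (95% interval -0.65 to -0.12, adjusted p = 0.257), Nars2, at 0.31 (-0.05 to 0.67), and Sars, at 0.30 (-0.10 to 0.70). Without the libraries numbered 0, Sars was 0.32 higher with shRNA2 than with shRNA1 (adjusted p = 0.00549) and Vars 0.31 lower, at -0.31 (adjusted p = 0.0232), where 8.87% of all genes were called, 3.92% higher and 4.95% lower.

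Other genes of tRNA charging and translation are given by list, beside the 9.69% of all genes called higher and 7.89% called lower in the mean of both hairpins, or 16.2% and 14.1% with the block. Of the 3 scaffold genes of the multi-synthetase complex, Aimp2 fell by 0.53 in the mean of both hairpins (adjusted p = 0.00492), and Aimp1 and Eef1e1 were at -0.10 and -0.15 without passing. Of 15 genes of tRNA editing, maturation and export, 1 rose and 4 fell, and with the block 2 rose and 4 fell. Dtd1, a D-aminoacyl-tRNA deacylase, rose by 0.25, and among those that fell were Elac2, which trims the 3′ end of tRNA and fell by 0.36, the pseudouridine synthase Pus1, which fell by 0.38, and the ligase Rtcb, which fell by 0.19. Xpot, which exports tRNA from the nucleus, was at 0.26 (adjusted p = 0.274) and passed only with the block. Of 7 cytosolic elongation factor genes Eef2k, the kinase that inhibits elongation factor 2, rose by 0.61 (adjusted p = 0.00234) and Eef1d fell by 0.27, while Eef1a1, which carries charged tRNA to the ribosome, was at 0.02. With the block, 1 rose and 2 fell.

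Of 17 genes of mitochondrial tRNA and translation, 0 rose and 1 fell in the mean of both hairpins, and with the block 1 rose and 4 fell, where the shares of all genes are those given above. The gene called in the unblocked fit was Gfm1, an elongation factor, which fell by 0.30 (adjusted p = 0.0103). Qrsl1, Gatb and Gatc were at 0.08, 0.07 and -0.18. Their products make glutaminyl-tRNA in mitochondria, for which no separate glutaminyl-tRNA synthetase gene exists. The 10 genes of amino acid stress regulation had the highest median of these lists, with 7 risen, 0 fallen and a median change of 1.34, and with the block 9 risen and 0 fallen, where 9.69% and 16.2% of all genes were called higher. Atf4 itself rose by 1.15 (adjusted p = 0.00543) and Asns, the asparagine synthetase that supplies Nars with its amino acid, by 1.34 (adjusted p = 0.0265), while Eif2ak4, the kinase that senses uncharged tRNA, was at 0.30 (adjusted p = 0.123).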

How the data were processed

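Messenger RNA was sequenced in 9 libraries of B16.SIY cells, 3 per group, grouped by their titles. The authors deposited 1 log2 value per gene and library, together with the log2 fold change, t score and p-value of each of their comparisons. Tools listed in the submitters' processing notes are kallisto, FastQC and limma, with no version. For the build, strand setting, low-value filter and read totals, no entry is given in the sources used here, so precision is the spread between libraries. The column codes for the hairpins were tied to shRNA1 and shRNA2 through the authors' headed comparisons: the change computed from the columns lay within 0.05 of the headed value for 100% of genes (rounded) with shRNA1 and 99.7% with shRNA2, and for 26.6% when the shRNA1 heading was set against the shRNA2 columns. The deposited scores (t) of the authors were not used. Every column of per-library values was mapped to a sample.

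The 36 members and all lists were chosen with earlier results of these data known. The named genes are all members, with library values for those called with both hairpins, called mitochondrial genes, partners of these and of the 4 cytosolic genes with the highest mean change. Library values for the other called or high cytosolic genes, Fars2 and Lars2 were added after their values were seen. All log2 values were fitted with limma 3.58.1 in R 4.3.3, with a mean per group, all 9 libraries, an intensity trend (3.3 prior and 6 residual degrees of freedom) and Benjamini-Hochberg adjustment over 10762 genes. The fit was tested on simulated data. Deviations of same-digit libraries from their group means correlated at 0.13 to 0.64 across genes in all 9 pairs (other digits, -0.63 to 0.53), so the digit was taken as a pairing read from the data, not from the labels, although libraries numbered 1 and 2 also correlated with each other across groups, and blocked values stand beside results they change. Positions are from GENCODE M21 (GRCm38), promoters from RefSeq. Some genes of the lists are not reported here by name.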

Additional observations from a re-analysis of the deposited data

How the results depend on the processing

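The median change of the cytosolic genes, 0.23 in the mean of both hairpins, ran from 0.04 (without control replicate 0) to 0.39 (without shRNA1 replicate 0) with 1 library left out, and was 0.31 under quantile normalization and without the libraries numbered 0. The mitochondrial median ran from -0.099 to -0.013 and was -0.14 under quantile normalization. No scaling moved the median of all genes by more than 0.016.

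Counts of called synthetases depended on the libraries and on the block. With the replicate block, 13 were called for shRNA1, 14 for shRNA2, 12 for both and 15 in the mean of the hairpins. The shares of all genes called were then 24.6%, 24%, 15.4% and 30.3%. Without the libraries numbered 0 the counts were 17, 19, 15 and 22, with 2 between the hairpins. Of all genes 34.5%, 37.3%, 23.7% and 41.4% were then called, and 8.87% between the hairpins. With 1 library left out the counts ran from 0 to 7 for shRNA1 and from 0 to 12 for shRNA2. For both hairpins they ran from 0 to 6 and for the mean from 0 to 15. The highest counts came without shRNA1 replicate 0, and without control replicate 1 all were 0. The share of all genes called moved as well, from 3.05% to 14.7% for shRNA1 and from 3.77% to 22.8% for shRNA2. For both hairpins this share ran from 1.75% to 9.87% and for the mean from 5.72% to 24.5%. For the mean the count was 1 without control replicate 2 (5.86% of all genes), 3 without control replicate 0 (14%) and 2 without shRNA2 replicate 1 (12.2%). It was 3 without shRNA2 replicate 2 (12.3%), 5 without shRNA1 replicate 1 (14.8%) or 2 (14.2%), and 7 without shRNA2 replicate 0 (16.3%). Fitting only the groups compared, dropping the trend or using quantile normalization left 0 calls for shRNA1 and 0 for both hairpins. Of all genes, these settings called 6.27%, 11.2% and 9.12% for shRNA1 and 4.46%, 6.79% and 5.09% for both hairpins. Centring the libraries gave 2 for shRNA1, where 12.7% of all genes were called. Fitting only the groups compared gives no value for the mean of the hairpins. The cause of these changes in count was not tested.

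Across members, 570 refitted values gave 474 with the same call and direction, 44 that lost and 33 that gained the call, and 19 that changed sign, none of them called. Under quantile normalization Dars (0.020), Qars (0.041), Vars (0.0059), Wars (0.0013), Ears2 (-0.15) and Nars2 (-0.045) changed sign, and Rars (-0.18, adjusted p = 0.0563) and Kars (-0.17, adjusted p = 0.0691) lost their calls. Rars2 was at 0.030 without the libraries numbered 0. With 1 library left out, Iars ran from -0.00033 to 0.40, Qars from -0.16 to 0.064, Vars from -0.16 to 0.022, Aars2 from -0.11 to 0.012, Ears2 from -0.024 to 0.048 and Nars2 from -0.096 to 0.13. With shRNA1, Decr2 ran from -1.23 to -0.90 over these fits, and limma no longer called it in 3 of them, with an adjusted p of 0.0872 and 0.0537 after dropping control replicates 1 and 2 and 0.0579 after dropping replicate 1 of shRNA1.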

Other observations

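Tarsl2, which encodes a second threonyl-tRNA synthetase of the cytosol and was looked up after the other values were seen, read 1.72, 2.48 and 2.13 in control replicates 0, 1 and 2, 2.71, 3.04 and 2.28 with shRNA1, and 2.76, 3.18 and 2.72 with shRNA2. Its change of 0.67 in the mean of both hairpins missed the threshold (SE 0.22, limma adjusted p = 0.0628) and passed it with the replicate block.

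Some synthetase genes overlap other genes of the table on the opposite strand, and whether the counting used strand is not given in the sources used here. Mars shares 68 bases with Ddit3, which rose by 1.33 in the mean of both hairpins. Hars and Hars2 share 198 bases at their starts, with Hars at -0.21 and Hars2 at 0.09.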
